A study of Mus musculus with 4 samples.

Results

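The nuclear genome of the mouse carries a long insert of mitochondrial sequence on chromosome 1, and the 7 unprocessed pseudogenes annotated in it are described here: Gm29216, Gm28661, Gm10925, Gm28437, Gm28438, Gm10222 and Gm28439. They were chosen by biotype and position alone, as the unprocessed pseudogenes listed in the stretch of chromosome 1 (GRCm38) that copies the mitochondrial genome, and the rule itself uses no measured value. They are 7 of 17259 genes listed in the series. The series holds 4 libraries of total RNA, all from brown adipose tissue of mice labelled WT (wild type). In 2 of them the RNA came from isolated mitochondria and in 2 from tissue minus mitochondria, called the non-mitochondrial fraction below. The labels name no treatment of the mice and give no strain, age or sex, and they do not say whether the 2 libraries of a fraction came from separate animals, so p-values measure only the spread between these libraries. The sources differ on what the latter libraries hold: their treatment label says tissue minus mitochondria, while their titles carry the word total and the study's supplement speaks of lysates of the whole tissue. The name used here follows the treatment label, and values of whole tissue would include its mitochondria.

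Nuclear copies of mitochondrial DNA are known as NUMTs. They arise when fragments of the mitochondrial genome are joined into a chromosome, where they usually have no promoter of their own and decay as pseudogenes. The mitochondrial genome itself is transcribed inside the organelle as long precursors, which are cut at tRNAs into mRNAs for subunits of the respiratory chain and of ATP synthase. Because a recent copy has nearly the same sequence as its source, a short read can often be placed at both. In brown fat, the heat-producing tissue rich in mitochondria, mitochondrially encoded transcripts are very abundant.

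The members all lay on the minus strand. On chromosome 1 (GRCm38) they reach from 24611535 to 24616197, a span of 4663 bases of which they cover 4149, less 4 bases that Gm28439 and Gm10222 share. Each matched 1 mitochondrially encoded mRNA, its counterpart, and in the transcribed direction the members stood in the order of the mitochondrial genome. Gm29216 (24615706 to 24616197) matched mt-Co1, Gm28661 (24614885 to 24615565) mt-Co2 and Gm28437 (24613189 to 24613971) mt-Co3, the genes of the 3 mitochondrially encoded subunits of cytochrome c oxidase. Gm10925 (24613974 to 24614651) matched mt-Atp6, which encodes a subunit of ATP synthase. Gm28438 (24612775 to 24613119) matched mt-Nd3, Gm10222 (24612407 to 24612700) mt-Nd4l and Gm28439 (24611535 to 24612410) mt-Nd4, which encode subunits of complex I. Placed without gaps over their annotated lengths, the 7 members together correspond to positions 6381 to 11042 of the mitochondrial genome, 4662 bases. The distance between the starts of neighbouring members equalled that between their matching bases on the mitochondrial genome in 5 of 6 cases. Between Gm28438 and Gm10222 it was 419 bases in the insert and 418 in the mitochondrial genome.

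**Figure D1:**
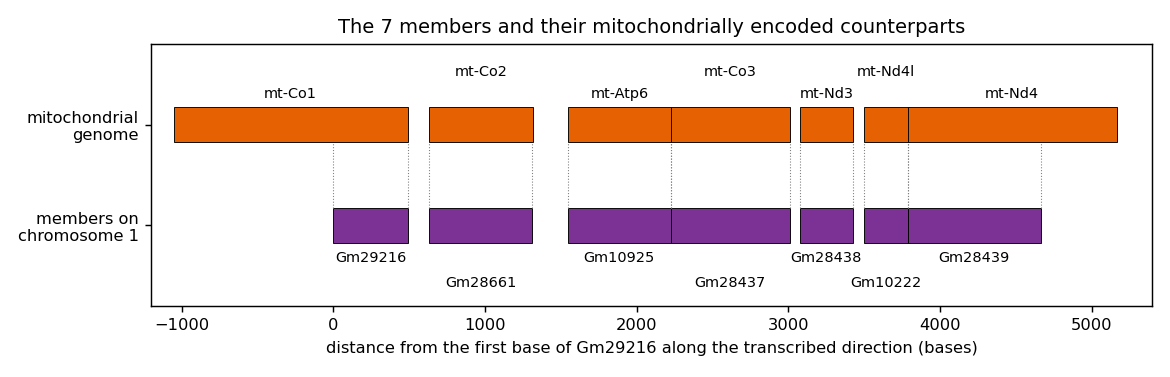
Annotated members on chromosome 1 (lower row) and their counterparts on the mitochondrial genome (upper row), drawn to scale against the distance in bases from the first base of Gm29216. Dotted lines join the ends of each member to the same distance on the mitochondrial genome, and 5 members span nearly all of their counterpart while Gm29216 and Gm28439 span 31.8% and 63.6%.

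Over their annotated lengths 4142 of 4149 bases (99.8%) were the same as in the mitochondrially encoded transcript. In 5 members, Gm28661, Gm10925, Gm28437, Gm10222 and Gm28439, all bases were the same. Gm10222 is shown whole, as an example of a member that its counterpart matches base for base, on the minus strand from chr1:24612407-24612700 (GRCm38), and mt-Nd4l has the same 294 bases from position 9877 of the mitochondrial genome to 10170.
Gm10222: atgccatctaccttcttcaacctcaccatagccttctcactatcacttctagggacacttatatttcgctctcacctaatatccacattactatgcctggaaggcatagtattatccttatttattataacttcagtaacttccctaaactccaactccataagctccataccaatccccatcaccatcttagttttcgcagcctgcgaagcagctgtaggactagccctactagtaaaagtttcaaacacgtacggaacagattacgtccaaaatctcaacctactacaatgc

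The other 2 members differed from their counterparts near their first bases only. The first 60 bases are shown for both, since they hold all differences found, with the differing bases in capitals. Those of Gm28438 (chr1:24613060-24613119, minus strand) stand above positions 9459 to 9518 of the mitochondrial genome, and those of Gm29216 (chr1:24616138-24616197, minus strand) above positions 6381 to 6440.
Gm28438: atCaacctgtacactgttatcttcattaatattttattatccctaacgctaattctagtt
mt-Nd3: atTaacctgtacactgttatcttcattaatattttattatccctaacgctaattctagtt
Gm29216: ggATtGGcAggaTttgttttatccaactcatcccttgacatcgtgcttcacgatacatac
mt-Co1: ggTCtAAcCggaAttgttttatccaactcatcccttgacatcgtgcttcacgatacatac

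Written with the mitochondrial base first, the position counted from 1 at the first base of the member, and the base of the insert last, the change in Gm28438 was T3C, which falls on position 9461 of the mitochondrial genome. With Gm29216 set against mt-Co1 without gaps over its whole annotated length, the differences were T3A, C4T, A6G, A7G, C9A and A13T. They fall on positions 6383 to 6393. The BLAST match of Gm29216 to mt-Co1 covered 483 of its 492 bases, at 99.793% identity. Whether the bases outside this match are part of the mitochondrial copy was not tested.

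The reads of these libraries were at most 75 bases long before trimming, so the sequence was also compared in windows of that length. Of 3631 windows that lie inside a member, 3615 (99.6%) occurred letter for letter in a mitochondrially encoded transcript. The 16 others were the 3 first windows of Gm28438 and the 13 first windows of Gm29216. A read inside Gm28661, Gm10925, Gm28437, Gm10222 or Gm28439 therefore has the same letters as a read of the counterpart. Of the windows of Gm28661, 138 also occurred in another listed nuclear gene, and of those of Gm29216, 39 did. Reads that run past an annotated end of a member were not compared, because the bases between the members were not analysed here.

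The 2 mitochondria libraries held 26288871 and 24910434 reads on genes, recovered from the steps of the deposited values, in which 1 read was worth 8.32 and 6.90 units. The totals of the non-mitochondrial libraries were 1590096 and 1905303 normalised counts, and their reads were not recovered. All 5 brown adipocyte markers (Ucp1, Cidea, Adipoq, Fabp4 and Plin1) were present in all 4 libraries, with summed normalised counts of 2647 and 7391 in mitochondria, against 12780 and 11209 in the non-mitochondrial libraries. Markers of liver summed to 8338 and 601 in mitochondria replicates 1 and 2 and to 143 and 4 in the other fraction. Those of skeletal muscle summed to 2522 and 738 against 238 and 500, and those of blood to 225 and 628 against 290 and 611. Their part in the results below was not tested. In bulk RNA of this kind, fewer organelles or cells and less RNA in each cannot be told apart.

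Values are normalised counts, that is, gene counts that the authors divided by a size factor per library. The members are taken in the order of the mitochondrial genome, beginning with those that match cytochrome c oxidase and ATP synthase genes. Gm29216 had 1953342 and 1310554 normalised counts in the mitochondria libraries, against 6813 and 9084 in the non-mitochondrial libraries. Its counterpart mt-Co1, the catalytic core subunit, had 7055860 and 4880009 against 28781 and 37725. In all 4 libraries the member, which matches 31.8% of the length of mt-Co1, was the lower of the pair. Gm28661 had 1393944 and 1081724 in mitochondria, against 5206 and 6779 in the other libraries. Its counterpart mt-Co2, the subunit that takes electrons from cytochrome c, had 1344021 and 1047824 against 5036 and 6609. Here the member lay slightly above its counterpart in every library.

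Gm10925 was the highest member, with 3288451 and 2467600 normalised counts in the mitochondria libraries, against 12220 and 13820 in the non-mitochondrial libraries. Its counterpart mt-Atp6, part of the proton channel of ATP synthase, had 2821550 and 2124033 against 10895 and 12284. The member exceeded the gene it copies in all 4 libraries. Gm28437 had 1030227 and 767798 in mitochondria, against 5794 and 7090 in the other libraries. Its counterpart mt-Co3, a core subunit without metal centres, had 1024277 and 766280 against 5773 and 7114. These were nearly the same numbers, with the member higher in 3 libraries and lower in non-mitochondrial replicate 2.

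The last 3 members match complex I genes. Gm28438 had 139675 and 113770 normalised counts in the mitochondria libraries, against 836 and 1038 in the non-mitochondrial libraries, and mt-Nd3 had 140898 and 115737 against 841 and 1036. Gm10222 had 310199 and 247154 in mitochondria, against 1296 and 1678 in the other libraries, and mt-Nd4l had 307361 and 243517 against 1289 and 1667. In both pairs member and counterpart were close in every library. Gm28439 had 676429 and 521569 in mitochondria, against 3070 and 4625 in the other libraries, while mt-Nd4 had 2630879 and 2018690 against 9720 and 14026. The groups did not overlap for any of the 7 members, as for 8.59% of the 8215 tested genes, in which both mitochondria libraries lay above both others.

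**Figure D2:**
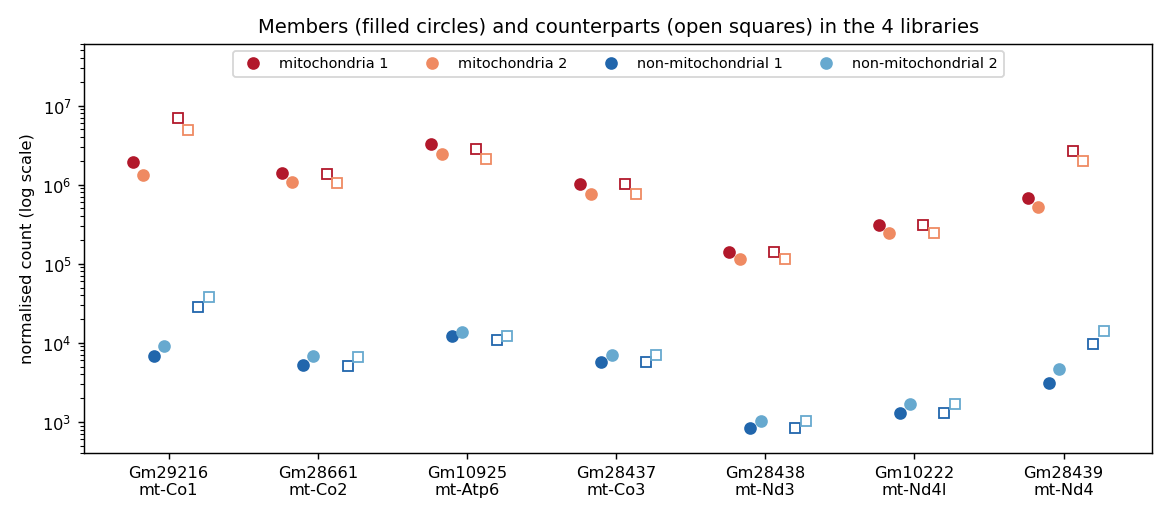
Normalised counts (log scale) of each member (filled circles) and its counterpart (open squares) in the 2 mitochondria libraries (reds) and the 2 non-mitochondrial libraries (blues). Member and counterpart stand at about the same height in all libraries for the 5 middle pairs, and the member stands lower for Gm29216 and Gm28439.

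In reads, the mitochondria libraries held 395156 and 357549 on Gm10925, 234723 and 189896 on Gm29216, 167503 and 156739 on Gm28661 and 123797 and 111252 on Gm28437. Gm28439 held 81283 and 75574, Gm10222 held 37275 and 35812 and Gm28438 held 16784 and 16485. The study's methods state that reads aligning to more than 1 position were left out of the counts. Members in which no window tells them from their counterpart nevertheless held between 35812 and 395156 reads. Which reads entered these counts was not tested.

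Among 17222 nuclear genes the members were at the top in isolated mitochondria. Gm10925, Gm29216, Gm28661 and Gm28437 held ranks 1 to 4 by normalised count, not divided by length, in both mitochondria libraries, and the other 3 members lay at rank 9 or higher. In the non-mitochondrial libraries Gm10925 held ranks 2 and 3, and the lowest member, Gm28438, held ranks 81 and 62. Summed over the 7 members, 4.02% and 3.79% of the values of the mitochondria libraries fell on the insert, against 2.22% and 2.32% in the non-mitochondrial fraction. The mean was 3.90% ± 0.164 in mitochondria and 2.27% ± 0.0703 in the other fraction (SD, n = 2 each). This difference exceeded the spread of both groups, but the exact two-sided permutation test gave p = 0.333, the smallest that 2 against 2 libraries allow. The members made up 84.6% and 83.5% of all values on nuclear genes in mitochondria and 4.53% and 5.69% in the other fraction. When the members were counted together with the 37 mitochondrially encoded genes, the share of the latter in the mitochondria libraries went from 95.3% and 95.5% to 99.3% in both, and 0.731% and 0.748% were left for all other nuclear genes.

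All 7 members were higher in mitochondria with limma at an adjusted p under 0.05 over all tested genes, a call that 0.803% of the 8215 genes received in this direction. No member was called lower, as 4.41% of the tested genes were. Their log2 fold changes ran from 7.08 in Gm28438 to 7.78 in Gm10925, with standard errors of 0.44 to 0.49, and each had a limma adjusted p of 0.0249. The ratio of the group means ran from 135 to 221. The median log2 fold change was 7.55 for the 7 members, 7.54 for the 7 counterparts, all 7 called higher, and 7.47 for the 6 mitochondrially encoded mRNAs without a member, all 6 called higher, against -1.23 for all tested genes. Of those 6 the highest by normalised count were mt-Cytb with 5779080 and 4339386 normalised counts in mitochondria, against 22964 and 32085, mt-Nd1 with 3454681 and 2548278 against 15805 and 19331, and mt-Nd5 with 3085879 and 2688170 against 10327 and 16379. With each library scaled to the same total (CPM), the median of the members was 0.75, that of all tested genes -7.15, and 0 of 7 were called (lowest limma adjusted p 0.0787, 0 at an unadjusted p under 0.05). Without non-mitochondrial replicate 1 or replicate 2 the call was lost as well, with limma adjusted p-values of 0.439 and 0.446 and medians of 7.37 and 7.74, and in these limma fits 0 genes of any kind were called, with 500 and 493 genes, all 7 members among them, at an unadjusted p under 0.05.

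In deposited normalised counts, mitochondria replicate 1 was 1.23 to 1.49 times replicate 2 over the members, and non-mitochondrial replicate 2 was 1.13 to 1.51 times replicate 1. As a share of the library the order of the replicates turned for Gm28438 (0.0638% and 0.0662%) and Gm10222 (0.142% and 0.144%) in mitochondria and for Gm10925 (0.769% and 0.725%) in the other fraction. Per kb of gene length the members stood in 1 order in all 4 libraries: Gm10925, Gm29216, Gm28661, Gm28437, Gm10222, Gm28439 and Gm28438. Of the sum of the members' levels per kb, Gm10925 took 28.4% to 34.2% and Gm29216 24.2% to 27.5%. Gm28661 took 13.4% to 14.9%, Gm28437 9.13% to 12.9% and Gm28438 2.81% to 4.23%. The neighbours Gm10222 (7.32% to 7.94%) and Gm28439 (5.36% to 7.35%) overlapped in range over the 4 libraries. All others in this order did not overlap with their neighbours.

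The ratio of a member to its counterpart inside a library does not depend on the scaling between libraries. For the 5 members that cover nearly all of their counterpart (99.0% to 99.9% of its length), the member took between 49.6% and 53.8% of the sum of the pair in all 4 libraries. Gm28437 took 50.1% and 50.05% in mitochondria, against 50.1% and 49.9% in the non-mitochondrial libraries. The 95% Wilson intervals in mitochondria, which cover counting error only, were 49.9% to 50.3% and 49.8% to 50.3%. For Gm28438 the shares were 49.8% and 49.6% against 49.9% and 50.05%, with intervals in mitochondria of 49.2% to 50.3% and 49.0% to 50.1%. Equal counts on both copies lay inside these intervals. Gm10222 took 50.2% and 50.4% against 50.1% and 50.2%, and in mitochondria replicate 1 its interval of 49.9% to 50.6% also held equal counts, while that in replicate 2, 50.003% to 50.7%, did not.

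For Gm28661 and Gm10925 the intervals lay above equal counts in both mitochondria libraries. Gm28661 took 50.9% and 50.8% in mitochondria, against 50.8% and 50.6% in the non-mitochondrial libraries, with intervals of 50.7% to 51.1% and 50.6% to 51.0% in mitochondria. Gm10925 took 53.8% and 53.7% against 52.9% and 52.9%, with intervals of 53.7% to 53.9% and 53.6% to 53.9%. The annotation around several pairs differs between the copies: mt-Atp6 shares 44 bases with the genes on both its sides, mt-Atp8 and mt-Co3, while Gm10925 shares 0 bases with another annotated gene. The study's methods state that reads overlapping several genes were left out. mt-Co2 has 3 annotated genes within the length of 1 read and Gm28661 has 0. mt-Nd3 has 4 and Gm28438 has 1. The part of these neighbours in the shares was not tested.

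Gm29216 and Gm28439, which cover part of their counterpart, took less of the pair. Gm29216 took 21.7% and 21.2% in mitochondria, against 19.1% and 19.4% in the non-mitochondrial libraries, a difference of 2.15 percentage points between the means. Gm28439 took 20.5% and 20.5% in mitochondria and 24.003% and 24.8% in the other fraction, so that its mean was 3.91 percentage points lower in mitochondria: 20.5% ± 0.0563 against 24.4% ± 0.562 (SD, n = 2 each). These were the largest differences between the fractions among the 7 pairs. mt-Co1 and mt-Nd4 have 1053 and 502 bases that no member covers, and a gene's value does not tell reads of those bases from reads of the shared ones.

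As log2 of the ratio of member to counterpart, the difference between mitochondria and the non-mitochondrial fraction was 0.19 for Gm29216, -0.32 for Gm28439 and 0.051 for Gm10925. It was -0.016 for Gm28438, 0.0087 for Gm10222, 0.0070 for Gm28661 and 0.0054 for Gm28437. The groups overlapped for Gm28661 and Gm28437. For the 5 others the exact two-sided permutation test over libraries gave p = 0.333 each, adjusted 0.467 over the 7 pairs, and no pair could pass in a design of this size. Over the whole insert the members took 36.5% and 36.8% of the sum of members and counterparts in mitochondria and 36.1% and 35.4% in the other fraction, a difference of 0.850 percentage points between the means. Without the highest member, Gm10925, and its counterpart this difference was -0.14 percentage points.

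**Figure D3:**
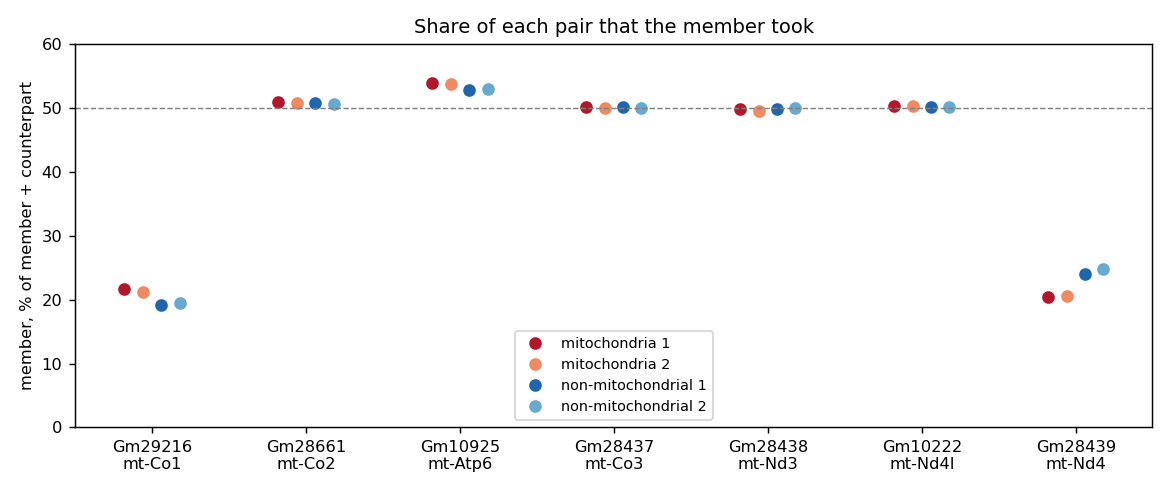
Share that each member took of the sum of member and counterpart (percent), by library, with a dashed line at 50%. Shares lie between 49.6% and 53.8% for the 5 members that cover nearly all of their counterpart, and between 19.1% and 24.8% for Gm29216 and Gm28439, which go apart in opposite directions between the fractions.

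Another 10 listed nuclear genes matched a mitochondrially encoded transcript at 90% identity or more over at least 50 bases, and they show the same measure at lower identity. With limma 7 of the 10 were called higher in mitochondria, which is given as a description beside the 0.803% of all tested genes. Of the 10, 4 had 0 to 2 normalised counts in the non-mitochondrial libraries and passed the mean of at least 10 through the mitochondria libraries, so the filter in part fixed their calls. Gm11512 and Gm11410 are the 2 of them called by limma. With CPM, and without non-mitochondrial replicate 1 or replicate 2, 0 of the 10 were called higher by limma, with 8 of the 10 at an unadjusted p under 0.05 in either direction without each of these libraries and 1 with CPM. With edgeR, which called 135 of the 8215 genes higher, 9 of the 10 were, all 4 of those genes among them. The highest were Gm13340, Gm13341 and Gm13339, unprocessed pseudogenes on chromosome 2, at 97.6%, 95.9% and 96.7% identity to mt-Co1, mt-Co2 and mt-Nd2. Of the windows of mt-Co1, 15.0% occurred in Gm13340, against 27.5% in Gm29216, and in mitochondria Gm13340 took 9.38% and 9.60% of its pair against 21.7% and 21.2% for Gm29216. Of the windows of mt-Co2, 22.6% occurred in Gm13341, against 99.5% in Gm28661, and Gm13341 took 16.1% and 16.6% of its pair. Gm4076 and Gm11407, which match mt-Nd5, held 8 and 21 shared windows and took 0.151% to 0.188% of their pairs in mitochondria. The other 5 held 0 shared windows and had 14 to 341 normalised counts in mitochondria, against at least 113770 for each member. The members made up 88.8% of the values on all 17 genes in both mitochondria libraries.

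**Figure D4:**
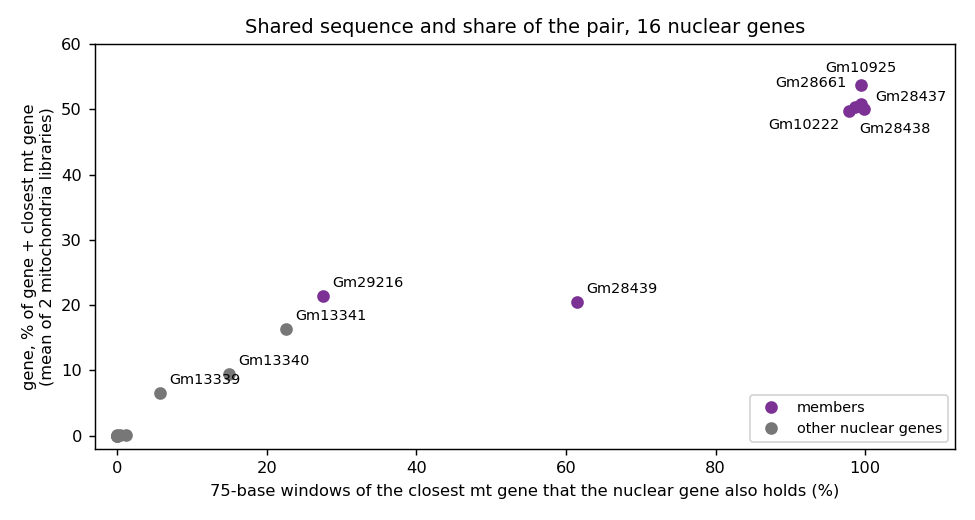
Percent of the 75-base windows of the closest mitochondrially encoded gene that a nuclear gene also holds (horizontal) against the percent it took of the sum of both genes (vertical, mean of the 2 mitochondria libraries), for 16 of the 17 nuclear genes with a match. The 5 members that hold nearly all windows stand near 50%, Gm28439 stands at 20.5% with 61.5% of the windows, and genes without shared windows stand near 0. Cep295 is left out, since its match, mt-Tn, is shorter than a window.

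The level of a mitochondrially encoded mRNA relative to the others depends on whether its member is counted with it. As deposited, mt-Cytb, which encodes cytochrome b of complex III and has no member, had the highest level per kb of the 13 mitochondrially encoded mRNAs in all 4 libraries, and mt-Co1 the second. mt-Atp6 held rank 3 in both mitochondria libraries and rank 4 in both others. With the member added, mt-Atp6 held rank 1 in all 4 libraries, mt-Co1 rank 2 and mt-Cytb rank 3. In mitochondria mt-Co3 went from rank 10 to rank 6 and mt-Nd4l from rank 11 to rank 8 in both libraries, while mt-Nd2 went from ranks 9 and 8 to ranks 11 and 10. The other nuclear matches were not added, among them Gm13339, which matches mt-Nd2 and had 107078 and 84487 normalised counts in mitochondria. mt-Nd3 and mt-Nd6 kept ranks 12 and 13. The 13 mRNAs took 13.3% ± 0.407 of the mitochondria libraries as deposited and 17.2% ± 0.571 with the members added, and 8.08% ± 0.614 and 10.3% ± 0.685 of the other fraction (SD, n = 2 each).

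**Figure D5:**
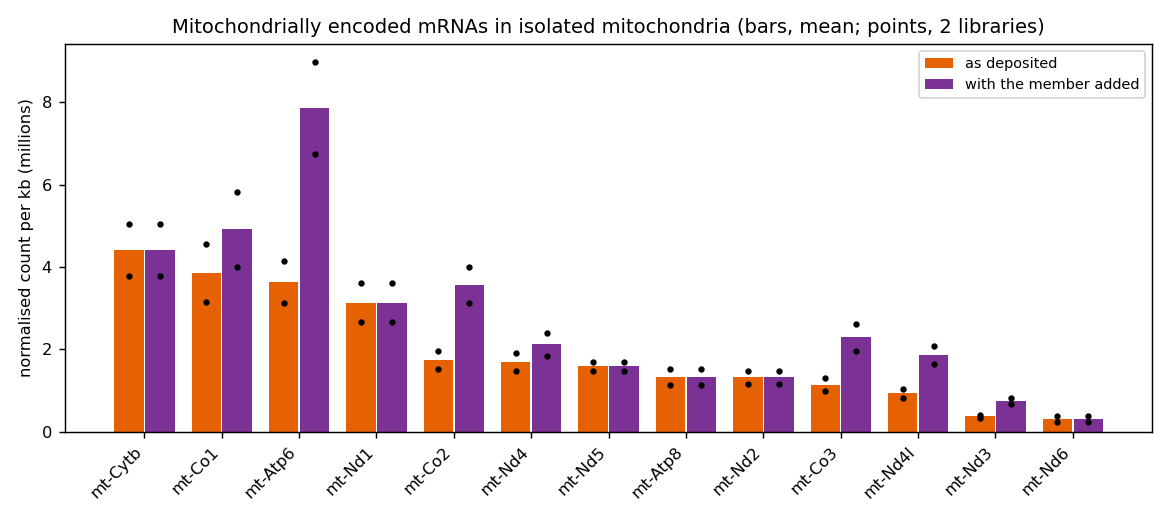
Normalised counts per kb (vertical, in units of 1e6) of the 13 mitochondrially encoded mRNAs in isolated mitochondria, as deposited and with the value of the member added (bars, mean of 2 libraries, points, each library). mt-Cytb is highest as deposited and mt-Atp6 once Gm10925 is added, and genes without a member keep their level.

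mt-Atp8, the other mitochondrially encoded ATP synthase subunit, lies between mt-Co2 and mt-Atp6 on the mitochondrial genome. The annotation lists no gene in the stretch of the insert between Gm28661 and Gm10925. mt-Atp8 had 307869 and 228990 normalised counts in the mitochondria libraries, against 1089 and 1470 in the non-mitochondrial libraries, and it has no member to add.

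The nearest listed genes outside the insert showed no such level. Tubb4b-ps2, a pseudogene 16112 bases away, had 0 reads in both mitochondria libraries and 2 normalised counts in each of the others. Lmbrd1, which encodes a lysosomal membrane protein that takes part in cobalamin export and starts 62433 bases away, had 1 and 5 reads in mitochondria and 51 and 59 normalised counts in the other fraction. By the root mean square difference of log2 values centred on their own mean over the 4 libraries, the 3 tested genes most like the sum of the members were mt-Nd4l (0.043), mt-Co2 (0.061) and mt-Cytb (0.063).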

How the data were processed

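The authors trimmed single-end reads, placed them on GRCm38 with STAR and used featureCounts to count reads per gene. They adjusted the fragmentation time of mitochondrial RNA. The deposited table holds a signal, gene counts that the authors divided by a size factor per library and rounded to whole numbers. The submitters' processing notes name Trimmomatic 0.39, STAR 2.7.10a, featureCounts 2.0.2 and DESeq2 1.30.1, and the study's methods give other versions of the last 3. Reads were recovered from the steps of the mitochondria columns (100.0% of values whole within 0.75 units), not from the others. Genes with a mean of at least 10 (8215) were compared as log2 of the value plus 1 with limma 3.58.1 (no trend, not robust) and Benjamini-Hochberg adjustment. On this scale changes of low genes are understated. edgeR 4.0.16 was run on reads as an alternative. Ratios within a library were compared with exact permutation tests in scipy 1.17.1. Sequences were those of GENCODE M21 transcripts (GRCm38), in which 17099 of 17259 listed genes (99.1%) and all 7 members had the same coordinates, matched with BLAST 2.17.0. The counterpart was the longest match.

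The limma fit and step recovery were tested on simulated data, and the edgeR fit was not. For limma the simulated data did not copy the unequal totals of the fractions. The rule for the members uses biotype and position, but it, the lists and the tests were chosen with earlier results of these data known. Named genes were the members, counterparts, up to 3 genes of each comparison list, the nearest listed genes and the 3 genes of most similar profile. Others were named after their values were seen. mt-Cytb, mt-Nd1 and mt-Nd5 were the highest mRNAs without a member. The alternatives covered pseudocount, filter, scaling, trend, replicate block, denominators, window length and left-out libraries.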

Additional observations from a re-analysis of the deposited data

How the results depend on the processing

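The 7 members were called higher by limma with a pseudocount of 10, without a filter, at a mean of at least 50, with trend, with scaling by median ratios of nuclear genes or by TMM and without either mitochondria library, and by edgeR on reads (adjusted p 1.39e-05 to 1.95e-05), which was chosen after seeing the data and takes the values of the non-mitochondrial libraries as reads. The planned edgeR fit on recovered reads alone was not run, since reads were not recovered there. The median log2 fold change of the members moved from 7.55 to 0.75 when CPM was used, to 8.21 after scaling by median ratios and to 7.90 under TMM, while that of all tested genes moved from -1.23 to -7.15, -0.62 and -0.90. With 1 library left out it ran from 7.37 to 7.74. Higher calls among members, counterparts, the 6 mRNAs without a member and the 10 other nuclear genes went from 7, 7, 6 and 7 to 0 in each list with CPM (where limma called Cep295 of the last list lower), with the replicate block and without either non-mitochondrial library. They ran from 0 to 7, 0 to 7, 0 to 6 and 0 to 9 when 1 library was left out. With the block all 7 members had a limma adjusted p of 0.158 and an unadjusted p under 0.05. Equal replicate numbers are not stated to mark a pairing, and their deviations correlated at 0.112 over 8215 genes, from 1 pair of differences. The cause was not tested.

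Over all genes, 66 higher and 362 lower calls became 53 and 1 with a pseudocount of 10, 143 and 3587 without a filter, 64 and 11 at a mean of at least 50, 13 and 7963 with CPM, 135 and 330 with edgeR, 467 and 3374 without mitochondria replicate 1, 622 and 3864 without replicate 2, and 0 and 0 with the block (944 at an unadjusted p under 0.05) and without either non-mitochondrial library (500 and 493). Higher calls made up 15.4% of all as deposited and 0.163% with CPM.

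The share of the insert differed between the fractions by 1.64 percentage points of the library, by 79.0 of nuclear genes and by 17.4 without the 2 mitochondrial rRNA genes. The members' share of members and counterparts differed by 0.850 points, and by -0.14 without Gm10925 and mt-Atp6. With 50-base windows 99.6% of windows were shared. The counting intervals of the shares in mitochondria were 0.155 to 1.07 points wide, wider than the difference between the fractions for Gm28661, Gm28437, Gm28438 and Gm10222, and no interval was had for the non-mitochondrial libraries. With 2 libraries a group, the permutation tests could not pass.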
